A study of Mus musculus with 53 samples.

Results

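Polycomb repressive complexes 2 and 1 (PRC2 and PRC1) were followed through the mRNA of 10 subunits in single T1 pre-HSCs, type 1 precursors of the haematopoietic stem cell (HSC). The subunits were chosen by gene symbol, and all 10 were among the 14833 genes listed for these cells. The choice was made with results of these data known: a low value of Mtf2 and of Ezh2 in KO cells had been seen, so their difference between genotypes is a description. The 12 KO cells, numbered 1 to 12, carried genotype mH19 delta_DMR/+, in which the differentially methylated region (DMR) upstream of the imprinted long non-coding RNA gene H19 is deleted. The 9 control cells, taken from cells 13 to 22 without cell 19, carried mH19 flDMR/+, a floxed and undeleted allele that the labels call wildtype. All cells came from the aorta-gonad-mesonephros region of embryos at E11, where the earliest HSCs arise. The labels name no embryo, litter or sorting day and no Cre driver. Each genotype therefore counted as 1 sample, cells were not replicates, and no test between genotypes was made. Spreads are over cells.

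PRC2 places methyl groups on lysine 27 of histone H3, a mark of silenced genes. Ezh2 or its paralogue Ezh1 is the catalytic subunit, Eed and Suz12 hold the enzyme active, and the histone-binding proteins Rbbp4 and Rbbp7 complete the core but also serve other chromatin complexes. Mtf2 (also called Pcl2) is an accessory subunit that brings PRC2 to unmethylated CpG-rich DNA. PRC1 attaches ubiquitin to histone H2A through Ring1 or Rnf2 (Ring1B), paired with a PCGF protein such as Bmi1. Ezh1 and Bmi1 are known for roles in adult stem cells, and Ezh2 for its role in fetal blood formation.

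Promoter sequence is shown for Ezh2 and Mtf2, whose mRNA lay lowest in KO relative to wildtype cells among the compared subunits. Both windows are from RefSeq on GRCm38.p6 and span 250 bases before to 50 after an annotated start. Ezh2 lies on the minus strand of chromosome 6, with its window at chr6:47594981-47595280. The 5' end of the Ezh2 gene, at base 47595270, is close to the upstream edge of that window. The start used for Ezh2 therefore lies inside the gene, as does most of the window. The Mtf2 window nearest the gene's annotated start lies on the plus strand at chr5:108065424-108065723. Capitals mark an E2F-type word, a match to the motif of the E2F cell cycle factors.
Ezh2: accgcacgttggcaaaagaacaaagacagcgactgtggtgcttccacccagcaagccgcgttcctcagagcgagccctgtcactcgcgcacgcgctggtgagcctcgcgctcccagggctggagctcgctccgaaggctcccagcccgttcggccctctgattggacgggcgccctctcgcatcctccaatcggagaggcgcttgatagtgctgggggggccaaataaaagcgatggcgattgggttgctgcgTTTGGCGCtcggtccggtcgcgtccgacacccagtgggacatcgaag
Mtf2: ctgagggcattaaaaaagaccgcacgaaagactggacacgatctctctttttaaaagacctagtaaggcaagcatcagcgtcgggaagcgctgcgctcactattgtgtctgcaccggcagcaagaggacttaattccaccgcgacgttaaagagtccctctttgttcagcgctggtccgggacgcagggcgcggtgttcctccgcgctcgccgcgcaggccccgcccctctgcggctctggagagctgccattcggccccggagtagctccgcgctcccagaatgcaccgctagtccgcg
The words searched, on both strands, were TTTGGCGC, TTTCCCGC, TTTCGCGC and TTTGCCGC, and 2.26% of 32851 promoter windows of the same length held one. Ezh2 held TTTGGCGC at bases 254 to 261 of its window, inside the gene, and Suz12 held TTTCCCGC at bases 32 to 39. The windows of the other 8 subunits held none of these letters. CpG dinucleotides numbered 31 in the Ezh2 window and 30 in that of Mtf2, against a median of 7 over all windows. A second annotated Mtf2 window, at chr5:108077915-108078214, held 2. All 10 subunits matched a RefSeq promoter, and their CpG counts outside that second window ran from 17 for Eed to 41 for Suz12.

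The cells differed in how much was detected. Between 1517 and 8408 genes reached 1 RPKM (reads per kilobase of transcript, scaled to the mapped reads of the cell) in single KO cells, with a median of 3171.5. In wildtype cells the number was 2067 to 5716, with a median of 4176. H19 was at 0 to 186 RPKM in KO cells, with a median of 28.1, and at 231 to 1261 RPKM in wildtype cells, with a median of 477. Procr, the surface receptor that marks T1 pre-HSCs, exceeded 10 RPKM in 7 of the 12 KO cells and 7 of the 9 wildtype cells. KO cells 1, 3, 7, 9 and 11 and wildtype cells 13 and 14 had at most 4.30 RPKM, below the next lowest cell at 93.1. Ptprc, the pan-leukocyte gene CD45, was detected in 1 cell of each genotype. Xist, the X-inactivation RNA, reached 1 RPKM in 7 of the 12 KO and 2 of the 9 wildtype cells. Of 7 mesenchymal markers, 6 were detected in some cell, whose levels summed to 0.00364 to 606 RPKM in KO cells, against 0 to 180 RPKM in wildtype cells. Of 6 macrophage markers, 3 were listed, summing to at most 700.5 RPKM in KO cells, against at most 1951 RPKM in wildtype cells. The 5 haematopoietic markers Runx1, Spi1, Gfi1, Myb and Mecom were each detected in some cell. They summed to 0.00106 to 141 RPKM in KO cells, with a median of 59.9, against 132 to 469 RPKM in wildtype cells, with a median of 297, so the groups overlapped narrowly. Of 16 S phase markers, 13 were listed, with a median sum of 367 RPKM in KO cells, against 571 RPKM in wildtype cells. The 17 G2 and M phase markers, all listed, had a median sum of 139 RPKM in KO cells, against 362 RPKM in wildtype cells. The part of these differences in the results was not tested, and results are given below also for cells with Procr at 10 RPKM or more. In 500-row windows around the 10 subunits, the values of wildtype cell 19 fitted the other cells best when moved by 1 row in 6 windows and unmoved in 4, and those of the other 21 cells fitted best unmoved in all windows.

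**Figure D1:**
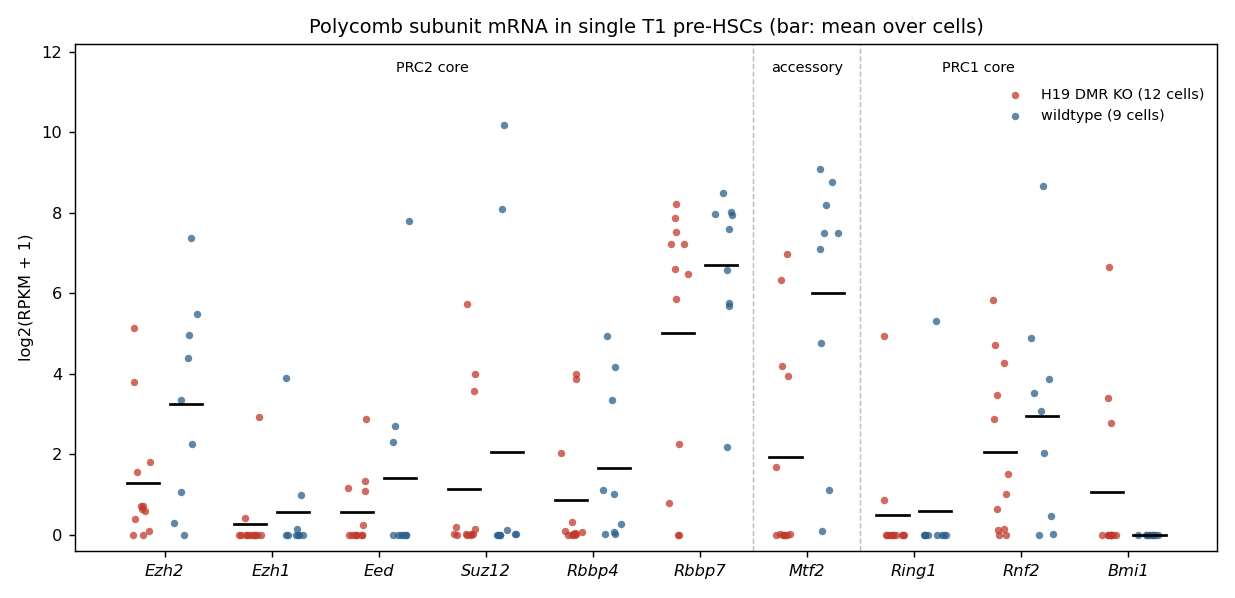
Level of each subunit, log2(RPKM + 1), in 12 H19 DMR KO cells (red) and 9 wildtype cells (blue), with 1 point per cell and a black bar at the mean. Rbbp7 stood highest in both genotypes, and Mtf2 showed the widest gap between the means, 1.93 in KO and 6.02 in wildtype cells.

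In KO cells most Polycomb subunits were detected in a minority of cells. In wildtype cells Rbbp7, Mtf2, Ezh2, Rnf2 and Rbbp4 were each detected in a majority. Single cells of either genotype rarely held a full set. At 1 RPKM or more, the 6 core PRC2 genes were detected in 24 of 72 gene and cell combinations in KO cells and in 27 of 54 in wildtype cells. The accessory gene Mtf2 was detected in 5 of the 12 KO and 8 of the 9 wildtype cells. The 3 PRC1 genes were detected in 11 of 36 combinations (30.6%) in KO cells and 7 of 27 (25.9%) in wildtype cells. Over all 14833 listed genes the corresponding shares were 26.8% in KO and 27.6% in wildtype cells. Members of a complex are not independent, because they were read from the same cells. A catalytic subunit, Eed, Suz12 and an Rbbp protein were detected together in KO cell 2 and wildtype cell 20, 1 cell of each genotype. A Ring1 or Rnf2 transcript was detected in 7 of the 12 KO and 6 of the 9 wildtype cells.

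**Figure D2:**
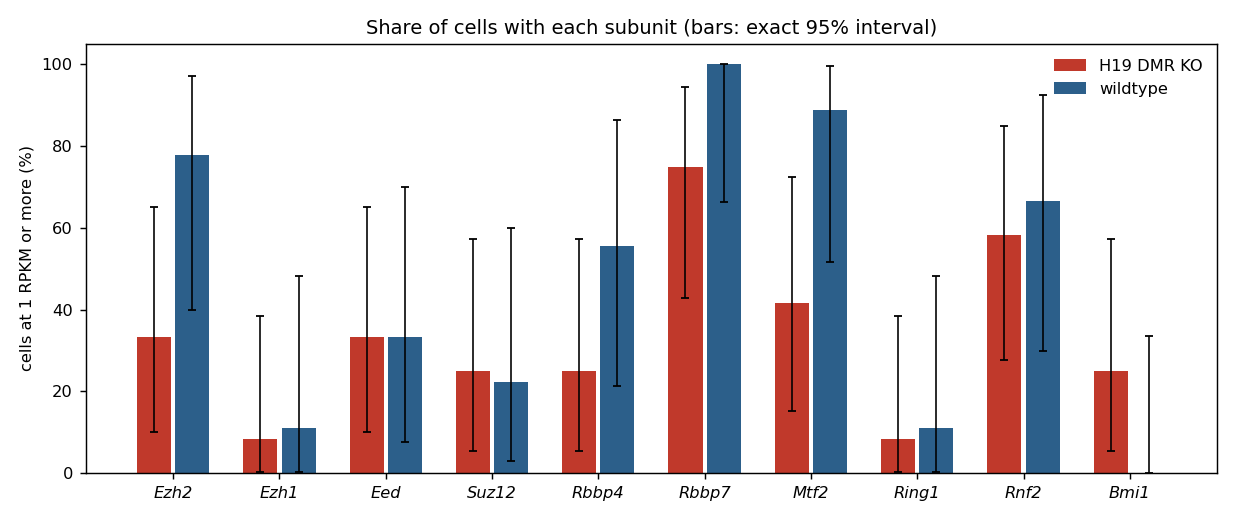
Share of H19 DMR KO cells (red) and wildtype cells (blue) with each subunit at 1 RPKM or more, with exact Clopper-Pearson 95% intervals for counting error only. Mtf2 reached this level in 41.7% of KO cells, against 88.9% of wildtype cells, and Ezh2 in 33.3% of KO cells, against 77.8% of wildtype cells, with intervals that overlap between genotypes for every subunit.

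Within the catalytic pair, Ezh2 was the form seen in more cells. Ezh2 was at 0 to 34.1 RPKM in KO cells, with a median of 0.593, and at 0.00529 to 166 RPKM in wildtype cells, with a median of 9.16. The highest KO cell was cell 10 and the highest wildtype cell was cell 20, and the ranges overlapped. It reached 1 RPKM in 4 of the 12 KO cells (33.3%, exact 95% interval 9.92 to 65.1%) and in 7 of the 9 wildtype cells (77.8%, 40.0 to 97.2%). Its mean log2(RPKM + 1) was 1.29 ± 1.61 in KO and 3.24 ± 2.53 in wildtype cells (SD over 12 and 9 cells). KO minus wildtype, the difference was -1.96. Ezh1 was detected in KO cell 4, at 6.56 RPKM, and in wildtype cell 20, at 13.8 RPKM. It was listed at 0 in 10 of the 12 KO and 6 of the 9 wildtype cells, and an exact 0 in such a table can be a failed estimate. Ezh1 was thus seen in 2 of 21 cells and Ezh2 in 11, and they were detected together in 1 cell.

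The scaffold genes were detected in few cells, at very unequal levels. Eed, which reads the methyl mark, was detected in 4 of the 12 KO cells at up to 6.35 RPKM, and in 3 of the 9 wildtype cells at up to 221 RPKM, the highest in cell 13. Suz12 was detected in KO cells 2, 6 and 8, at 10.8, 15.0 and 52.5 RPKM, and in wildtype cells 13 (1156 RPKM) and 20 (275 RPKM). Every other wildtype cell had under 1 RPKM of Suz12, so the groups overlapped while the 2 wildtype cells exceeded every KO cell. The differences of mean log2(RPKM + 1) were -0.87 for Eed and -0.91 for Suz12. Both rest on single cells. Without wildtype cell 13 they were -0.069 for Eed and 0.11 for Suz12, and without wildtype cell 20 Suz12 was at -0.15. Over the 7 KO and 7 wildtype cells with Procr at 10 RPKM or more they were 0.47 for Eed and 0.76 for Suz12.

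Of the histone-binding paralogues, Rbbp7 was detected in more cells than Rbbp4. Rbbp7, which lies on chromosome X, was at 0 to 296 RPKM in KO cells, with a median of 92.5, and at 3.52 to 360 RPKM in wildtype cells, with a median of 192. It was detected in 9 of the 12 KO and all 9 wildtype cells, and KO cells 10, 11 and 12 had at most 0.735 RPKM. Among all listed genes, 5.29% were detected in as many of the 21 cells as Rbbp7. Its mean log2(RPKM + 1) was 5.01 ± 3.24 in KO and 6.70 ± 1.98 in wildtype cells, which gives -1.69 for KO minus wildtype. Among cells with Xist under 1 RPKM the difference was 0.50, over 5 KO and 7 wildtype cells, where the median over all compared genes was -0.033. With the 4 KO cells with at least as many genes as the median wildtype cell it was 0.075, where the median over all compared genes was 1.10. Rbbp4 was detected in 3 of the 12 KO cells at up to 15.1 RPKM, and in 5 of the 9 wildtype cells at up to 29.9 RPKM, with a difference of -0.79. It was listed above 0 and under 1 RPKM in a further 7 KO and 4 wildtype cells. Paralogues can trade reads, and the treatment of shared reads is not given in the sources used here.

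Mtf2, the accessory subunit, had the widest difference of mean log2(RPKM + 1) among the 10 subunits. As a log2 ratio of mean RPKM + 1, which follows the highest cells, it was at -3.27, beside -4.40 for Suz12, -3.84 for Eed and 3.41 for Bmi1. In KO cells it was at 0 to 124 RPKM with a median of 0.0107, and in wildtype cells at 0.0738 to 542 RPKM with a median of 182. It was detected in KO cells 2, 5, 6, 7 and 8, at 17.5, 80.1, 14.5, 124 and 2.19 RPKM. Wildtype cells 13 to 18 held 542, 1.18, 294, 436, 182 and 26.2 RPKM, in order, and wildtype cells 20 to 22 held 182, 0.0738 and 137 RPKM. The groups overlapped: wildtype cells 14 and 21 lay among the low KO cells, while 6 wildtype cells exceeded every KO cell. The mean log2(RPKM + 1) was 1.93 ± 2.70 in KO and 6.02 ± 3.32 in wildtype cells. KO minus wildtype, this is -4.09, larger in size than either SD. Genes reaching 1 RPKM in 50% or more of the KO or of the wildtype cells, 3867 in all, were compared, and Mtf2 passed through wildtype cells alone. The haematopoietic marker sum was lower in KO cells as well, at the medians given above, and its part in the Mtf2 and Ezh2 differences was not tested. Over cells with Procr at 10 RPKM or more, 7 of each genotype, Mtf2 stood at a median of 2.19 RPKM in KO against 182 RPKM in wildtype cells, and the difference was -3.97. With the 4 KO cells with at least as many genes as the median wildtype cell, the difference was -2.39, while the median over the 3867 genes was 1.10.

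**Figure D3:**
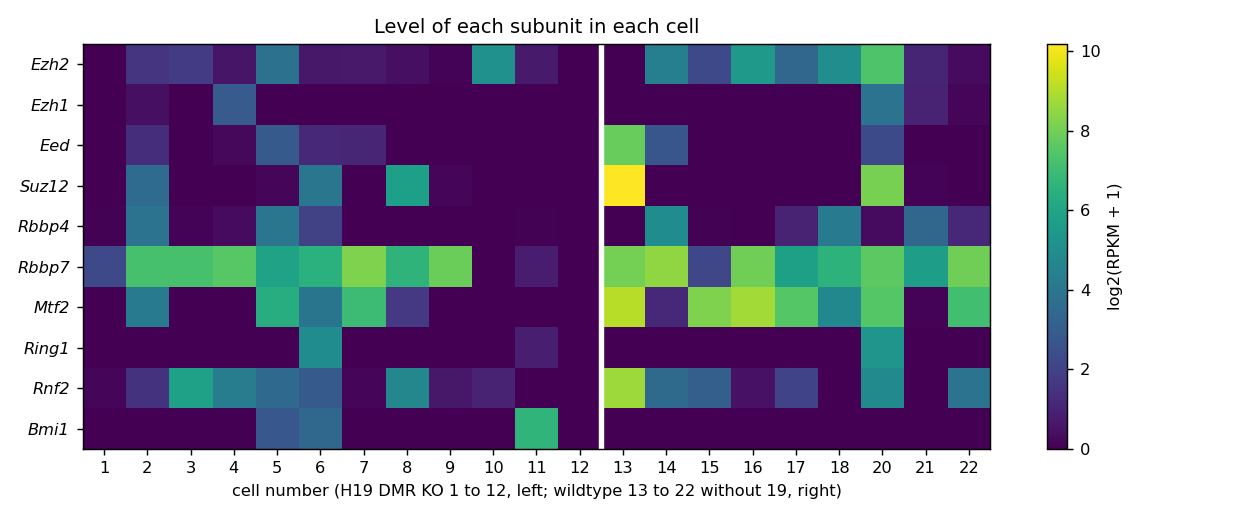
Level of each subunit, log2(RPKM + 1) as colour, in each cell, with H19 DMR KO cells 1 to 12 left of the white line and wildtype cells right of it. Rbbp7 runs through most cells, Mtf2 is high in most wildtype cells, and wildtype cells 13 and 20 hold the highest values of 7 of the 10 subunits between them.

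In PRC1, Rnf2 was the ring finger ligase seen in more cells. Rnf2 was at 0 to 56.0 RPKM in KO cells, with a median of 1.42, and at 0.00271 to 407 RPKM in wildtype cells, with a median of 7.51. It was detected in 7 of the 12 KO and 6 of the 9 wildtype cells, and the ranges overlapped. The difference of mean log2(RPKM + 1) was -0.90; it was -0.19 without wildtype cell 13 and 0.50 over cells with Procr at 10 RPKM or more. Ring1 was detected in KO cell 6, at 29.7 RPKM, and in wildtype cell 20, at 38.6 RPKM. Bmi1 was detected in KO cells 5, 6 and 11, at 5.85, 9.52 and 99.9 RPKM, and was listed at 0 in all 9 wildtype cells. A share of 0 of 9 cells has an exact 95% upper limit of 33.6%, so the absence of Bmi1 from wildtype cells cannot be read from this number of cells. Its difference of mean log2(RPKM + 1) was 1.07, or 0.56 without KO cell 11, and no fold is given.

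The subunits had the following order of mean log2(RPKM + 1), a scale that allows for gene length. In KO cells Rbbp7 came first at 5.01, then Rnf2 at 2.05, Mtf2 at 1.93, Ezh2 at 1.29, Suz12 at 1.14, Bmi1 at 1.07, Rbbp4 at 0.87, Eed at 0.56, Ring1 at 0.48 and Ezh1 at 0.28. In wildtype cells the order was Rbbp7 at 6.70, Mtf2 at 6.02, Ezh2 at 3.24, Rnf2 at 2.95, Suz12 at 2.05, Rbbp4 at 1.66, Eed at 1.42, Ring1 at 0.59, Ezh1 at 0.56 and Bmi1 at 0. No neighbours in either order differed by more than the larger of their SDs over cells. The place of Mtf2 beside Rbbp7 in wildtype cells, ahead of its catalytic partner Ezh2 by 2.78, was the widest step there.

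**Figure D4:**
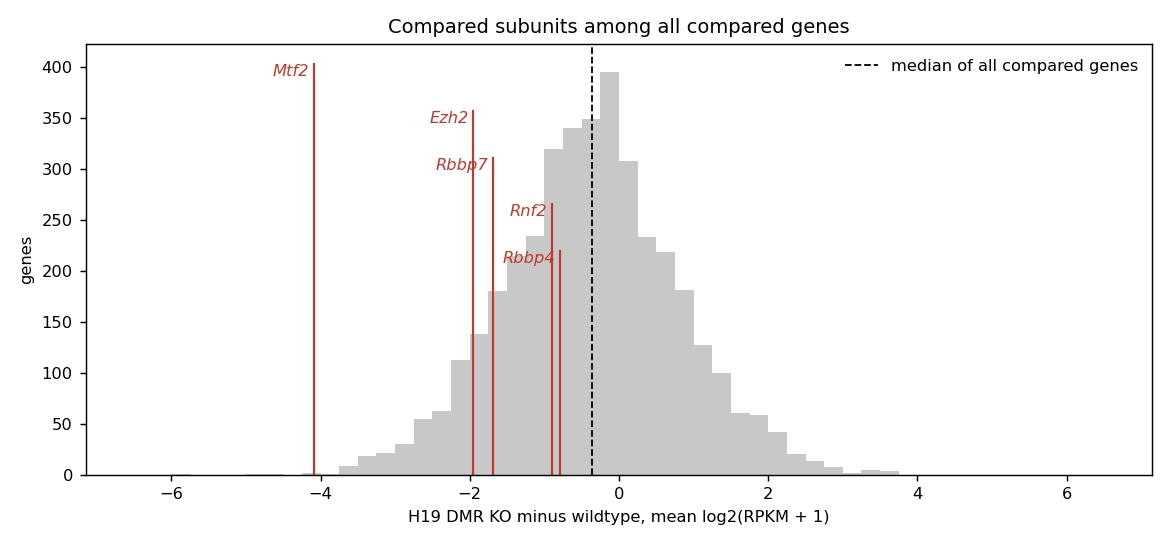
Difference of mean log2(RPKM + 1), H19 DMR KO minus wildtype, for all 3867 compared genes (grey, number of genes per bin) and for the 5 subunits among them (red lines). The dashed line is the median of all compared genes, -0.36, and all 5 subunits lie to its left, from -4.09 for Mtf2 to -0.79 for Rbbp4. With each cell shifted to the same median, Rbbp4 was at 0.37 and Rnf2 at 0.26. Both were then still below the median of all compared genes, which moved to 0.79.

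Of the 10 subunits, 5 reached the detection needed for comparison, namely Ezh2, Rbbp4, Rbbp7, Mtf2 and Rnf2. A subunit could pass through wildtype cells alone, as Ezh2, Mtf2 and Rbbp4 did, so the count below supports no direction. Of the 5, Mtf2, Ezh2 and Rbbp7 were lower in KO by 1 or more in log2(RPKM + 1) units and 0 were higher by as much. Over all compared genes 28.0% were lower and 11.4% higher by that size; this size is a convention, and nothing was tested. The median difference of the 5 was -1.69, against -0.36 over the 3867 genes. Over all 10 subunits, with no filter, the median was -0.88, 9 were below 0, and Bmi1 was above. Over all listed genes, with no filter, the median was 0 and 10.6% were lower by 1 or more. The 9 include Ezh1 at -0.28 and Ring1 at -0.11, each detected in 1 cell of each genotype, so this count supports no direction. With each cell shifted to the same median, which put the median of all compared genes at 0.79, Mtf2 was at -2.93, Ezh2 at -0.80 and Rbbp7 at -0.53, and the other 7 subunits were above 0. In the 7 KO and 7 wildtype cells with Procr at 10 RPKM or more, Mtf2, Ezh2 and Rbbp7 were again lower by at least 1, at -3.97, -1.81 and -1.44, where 23.8% of the 3867 genes were lower by that size. Ranges of the 2 genotypes overlapped for all 10 subunits, and 0.0517% of compared genes had ranges that did not.

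**Figure D5:**
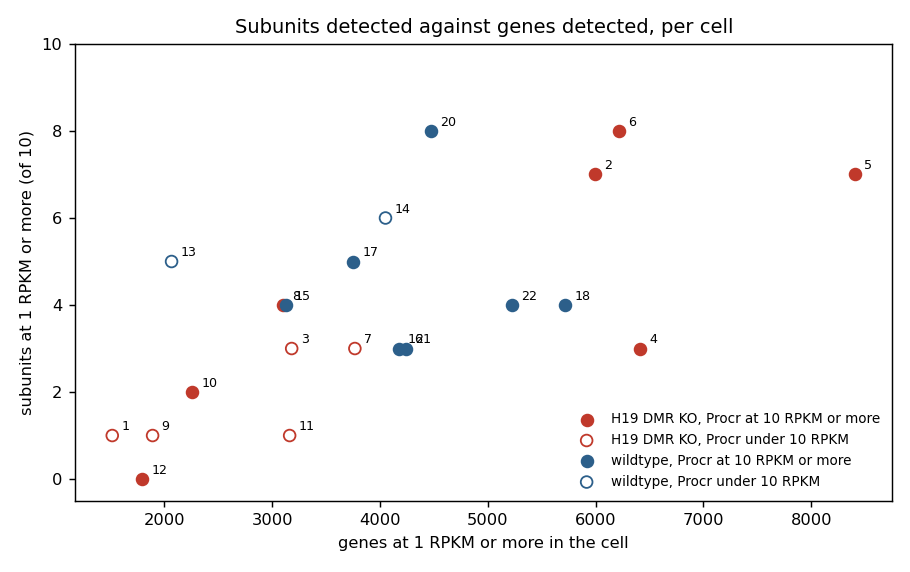
Number of the 10 subunits at 1 RPKM or more against the number of genes at 1 RPKM or more, 1 point per numbered cell; H19 DMR KO cells are red and wildtype cells blue, and open points have Procr under 10 RPKM. KO cells 2, 5 and 6, with 7, 7 and 8 subunits, each have more genes than any wildtype cell, as does KO cell 4 with 3 subunits, and KO cell 12 has 0 subunits and 1796 genes.

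The number of subunits per cell ran from 0 to 8 in KO cells, with a median of 3, and from 3 to 8 in wildtype cells, with a median of 4. In KO cells it followed the number of detected genes, with a Spearman rho of 0.80 over 12 cells, and in wildtype cells it did not, with a rho of -0.20 over 9 cells. Both numbers come from the same libraries and share their depth, which is unknown. Among single subunits, Rbbp4 followed the number of genes most closely, with a rho of 0.77 over the 21 cells. Wildtype cell 13 had the fewest genes of its genotype, 2067, and yet the highest Eed, Suz12, Mtf2 and Rnf2 of all 21 cells. Wildtype cell 20 had the highest Ezh2, Ezh1 and Ring1, and wildtype cell 14 the highest Rbbp4 and Rbbp7. KO cell 11 had the highest Bmi1 and no other subunit at 1 RPKM or more.

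Levels of the subunits were weakly correlated over cells. Across the 45 pairs, Spearman's rho over 21 cells ran from -0.30 to 0.60 with a median of 0.18. The highest value, 0.60 for Ring1 and Bmi1, rests on genes listed at 0 in most cells, and they were detected together in 1 cell. Ezh2 and Suz12 were detected together in 2 cells, Ezh2 and Eed in 4, and Ezh2 and Mtf2 in 8. Of 3454 compared genes ranked, Scaf4, Sap30bp and Ndufb4 had the pattern most like that of Ezh2, with rho of 0.82, 0.74 and 0.71 over the 21 cells. For Mtf2 they were Rab3gap1, Nars and Eif3j1, with rho of 0.85, 0.80 and 0.80. These are the highest of many values and carry no test.

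The other PRC2 accessory genes compared had smaller differences than Mtf2. Of 7 listed genes of this kind, Mtf2 included, 3 were compared. Jarid2, which helps to seat PRC2 on chromatin, was detected in 7 of the 12 KO and 7 of the 9 wildtype cells, with medians of 5.07 and 13.7 RPKM and a difference of -1.11. Lcor, a corepressor whose locus also yields a PRC2 partner, was detected in 10 of the 12 KO and 7 of the 9 wildtype cells, a difference of 0.30. Phf19, a Polycomb-like relative of Mtf2, was at 1 RPKM or more in 0 cells of either genotype, and Phf1, another, in 1 KO and 0 wildtype cells. Aebp2, a DNA-binding cofactor, was detected in 3 KO cells and 1 wildtype cell.

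Among the wider PRC1 genes, few were detected often enough to compare. A minority of all listed genes were, 3867 of 14833, so a low count is not particular to these lists. None of the 5 CBX genes, whose proteins bind the PRC2 mark, and none of the 6 PCGF genes, Bmi1 included, was compared. CBX genes were detected in 10.0% of gene and cell combinations in KO and 11.1% in wildtype cells. PCGF genes were detected in 23.6% in KO and 13.0% in wildtype cells. Over all listed genes the shares were 26.8% in KO and 27.6% in wildtype cells. Of 5 listed PHC and SCM genes Scml2 alone was compared, at 0.56. Of 10 variant PRC1 genes 3 were compared, and Auts2, which can turn PRC1 towards activation, was higher in KO by 1.93. It was detected in 6 of the 12 KO and 3 of the 9 wildtype cells, with maxima of 175 and 5.95 RPKM. Auts2 thus passed the filter through KO cells alone. None of the 8 genes of the H2A deubiquitinase PR-DUB was compared. Of the 3 genes listed as H3K27 demethylases, which oppose PRC2, Kdm6b alone was compared, at 0.26.

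Rbbp4 and Rbbp7 also have partners outside Polycomb. Of 15 genes of NuRD, Sin3 and CAF-1, 7 were compared, 4 were lower by at least 1 and 0 higher, with a median of -1.13, beside 28.0% lower and 11.4% higher among all compared genes. The 4 were Mbd3 at -2.71, Gatad2a at -2.36, the remodelling ATPase Chd4 at -2.32 and the deacetylase Hdac1 at -1.13. Gatad2a was detected in 3 of the 12 KO and 7 of the 9 wildtype cells. It passed the filter through wildtype cells alone, as did Hdac2 at -0.60. Mta2, at 0.92, passed through KO cells alone. The count of lower genes therefore supports no direction. Chd4 was detected in 10 of the 12 KO and 9 of the 9 wildtype cells, with medians of 57.9 and 181 RPKM. Of 10 trithorax and MLL genes, which act against Polycomb, 5 were compared, with a median of -0.10. Kmt2d, a histone H3 lysine 4 methyltransferase, was lower at -1.65. It was detected in 4 of the 12 KO and 8 of the 9 wildtype cells, and passed through wildtype cells alone. Of 14 genes known as Polycomb targets, 10 were listed and 4 compared. Hoxa7 and Hoxa9 were higher in KO cells by 1.60 and 1.30, beside 11.4% of all compared genes higher by at least 1. Cdkn1c, an imprinted cell cycle inhibitor, was lower at -1.95. Hoxa7 and Hoxa9 were each detected in 6 of the 12 KO cells, against 3 and 2 of the 9 wildtype cells, and their ranges overlapped. Both passed the filter through KO cells alone, so their place among the compared genes supports no direction. Over all 77 listed genes of these lists other than the 10 subunits, 23 were compared, 7 were lower and 3 higher by at least 1, shares near the 28.0% and 11.4% of all compared genes. Their median was 0.13, beside -0.36 for all compared genes.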

How the data were processed

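RNA of single T1 pre-HSCs was read from the table of RPKM values that the authors deposited, with 1 column per cell. It was made with Cufflinks 2.1.0 on mm10 (both per the submitters' processing notes). Which aligner and annotation were used, and how shared reads were handled, is not given in the sources used here. Depth is unknown, because RPKM keeps no counts, and intervals cover counting error only. RPKM is relative to the cell's total, so a cell with few genes gives each of them a higher value. Columns were matched to samples by cell number. The main value was the difference of mean log2(RPKM + 1), KO minus wildtype, over genes at 1 RPKM or more in 50% of either group. Wildtype cell 19 was left out, its rows being out of step with the gene names. Alternatives changed the pseudocount, scaling, filter, summary and cells. Calculations used Python 3.11.15, pandas 2.3.3 and scipy 1.17.1, and were tested on simulated data. The members and gene lists were chosen with earlier results of these data known. All 10 members are named, with up to 4 genes per wider list past 1 in size; genes named without passing that size were chosen after their values were seen. The Procr limit of 10 RPKM was set after the data were seen. None of the members is a row of the adult HSC table, which was not used here, nor were the methylation samples.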

Additional observations from a re-analysis of the deposited data

Results flagged for a closer look

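Within the 9 wildtype cells, 4 subunits had 1 cell far from the others on the log2(RPKM + 1) scale, by a gap larger than 0.493 of the whole range. For normally distributed values chance passes this limit in about 1 of 20 groups. With many values listed at 0 that rate does not apply here, and the limit only marks cells to look at. Ezh1 was at 13.8 RPKM and Ring1 at 38.6 RPKM in wildtype cell 20, where 8 of the 10 subunits were detected. Eed was at 221 RPKM in wildtype cell 13, a cell with Procr listed at 0. Rbbp7 was lowest in wildtype cell 15, at 3.52 RPKM. For Ezh1, Eed and Ring1 most other cells were listed at 0, so that a cell with a high value readily stands apart. Eed was also detected in wildtype cells 14 and 20, at 5.53 and 3.92 RPKM.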

How the results depend on the processing

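Mtf2 and Ezh2 were lower in KO cells under all 11 alternatives that changed the scale or the cells. Mtf2 was at -7.50 (medians over cells) to -2.39 and Ezh2 at -3.03 to -0.80. Leaving out any 1 cell gave -4.83 to -3.71 for Mtf2. The alternatives reuse the cells in which both low values had been seen, so they show the effect of processing only. Among the 11 is the addition of wildtype cell 19, whose values fitted best when moved by 1 row around both genes. The count of subunits lower by 1 or more, 3 of 5 compared, was 5 with a pseudocount of 0.1, where 40.6% of all compared genes were lower by that size. It was 1 with a pseudocount of 10 (11.0% of genes) and 1 with each cell shifted to the same median (6.21%), which moved the median of all compared genes to 0.79; the settings of the report gave 28.0%. It was 3 to 5 without any 1 cell, where 23.4 to 37.8% of all compared genes were lower by that size. It was 5 without KO cell 5, where that share was also highest, at 37.8%. The count higher by 1 or more, 0 with the settings of the report, was 1 with no filter, 1 with the 4 KO cells with at least as many genes as the median wildtype cell and 1 with cells of Xist under 1 RPKM, and 0 to 0 without any 1 cell. The share of all genes higher by 1 or more was not taken under these choices. The median difference of the compared subunits was 0.026 with those 4 KO cells. There 8 subunits were compared and the median over all genes compared in those cells was 1.28. With cells of Xist under 1 RPKM it was -0.12, and the median over all genes compared in those cells was 0.13. It was -2.08 to -1.24 without any 1 cell, where the median over all compared genes was -0.65 to -0.20. Rbbp7 was at 0.075 with those 4 KO cells, below the median of all genes there, and at 0.50 with cells of Xist under 1 RPKM. The cause was not tested. Suz12, Eed, Ezh1, Rbbp4, Ring1 and Rnf2 lay on either side of 0 across the alternatives. Without wildtype cell 20 Ezh1 was at 0.14 and Ring1 at 0.48, and without wildtype cell 14 Rbbp4 was at -0.38. Calling a gene detected at any value above 0 moved 10 of 20 shares beyond their intervals. No paired analysis was possible because KO and wildtype cells share no number. The limits on cells of Procr, Xist and gene number were chosen after seeing the data.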

Other observations

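Mtf2 was listed at 181.59 RPKM in wildtype cell 17 and 181.586 RPKM in wildtype cell 20. Values this close, at 1 RPKM or more and within a relative difference of 5e-05, occurred in 18 of 420560 pairs of values over the table, or 0.00428%, and in 18 genes. What this means for these cells was not tested.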
